A study of Macaca mulatta with 19 samples.

Results

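Luteinized granulosa cells from 4 follicles whose oocyte was at metaphase II (MII) were compared with those from 8 follicles whose oocyte was at metaphase I (MI), 12 of the 19 libraries of a rhesus macaque RNA sequencing series. Libraries were chosen by the oocyte class in their labels alone. The series crossed 2 implants, cholesterol (C) or testosterone (T), with 2 diets, standard chow or a Western-style diet (WSD), given for several years from around menarche. The naturally selected follicle was then aspirated near ovulation in a controlled ovulation cycle, and polyA RNA of its granulosa cells was sequenced. Each library has its own label and was taken as 1 animal.

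The oocyte classes were spread unevenly over the treatments. Of the MII libraries, MII 2 came from Chow+C (chow and a cholesterol implant), MII 3 and MII 4 from Chow+T (chow and testosterone), and MII 1 from WSD+T (Western-style diet and testosterone). Of the MI libraries, MI 1, 2 and 3 came from Chow+C, MI 5, 6 and 7 from WSD+C (Western-style diet and a cholesterol implant), and MI 4 and 8 from WSD+T. Testosterone was thus given in 3 of 4 MII and 2 of 8 MI animals, and the Western-style diet in 1 of 4 MII and 5 of 8 MI animals. Chow+T had no MI library and WSD+C no MII library, so over all 12 libraries oocyte class and treatment cannot be told apart. They can be separated only inside Chow+C (1 MII against 3 MI) and inside WSD+T (1 against 2).

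Before ovulation the oocyte rests in meiosis inside its follicle. The luteinizing hormone surge acts on granulosa cells, which release EGF-like ligands, lose the C-type natriuretic peptide and cyclic GMP signal that holds the oocyte, and switch from estrogen to progesterone production. The oocyte then passes through MI and stops again at MII, the stage at which it can be fertilized.

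Gene counts ranged from 28832132 to 45280532 in the MI and from 35582942 to 43250060 in the MII libraries. Pairs of the 12 libraries correlated at 0.882 to 0.984 (Pearson, log2 CPM, with CPM the counts of a gene relative to its library's total). MI 2 stood apart on the first principal component (25.2% of the variance), with 49.1% of its reads in genes and 17.9% of gene counts from 12 mitochondrial genes, against 0.795% to 11.4% in the other 11 libraries. MII 3 stood apart on the second (16.3%) and had the highest summed macrophage and leukocyte markers, but not the highest lymphocyte or neutrophil markers. All 12 matched granulosa markers were at 1 CPM or more in every one of the 12 libraries, and they summed to 8830 to 16500 CPM in MI and 7830 to 15300 CPM in MII. CPM below are scaled by the trimmed mean of M-values (TMM), and a log2 fold change is MII minus MI.

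No gene passed an adjusted p of 0.05 among 14316 genes tested with edgeR's quasi-likelihood test (0 called, 0%), and the smallest adjusted p was 0.326. At an unadjusted p under 0.05, 779 genes were higher in MII (5.44%) and 645 lower (4.51%). The biological coefficient of variation between libraries was 44.2%. DESeq2 called 137 genes on the same libraries, 77 higher and 60 lower, and limma-voom called 0, with 786 higher and 636 lower at an unadjusted p under 0.05. In 32 genes all 4 MII libraries lay above all 8 MI libraries (0.224% of those tested), and in 91 genes they lay below (0.636%). Nothing below passed edgeR's threshold with all 12 libraries in the fit, so values are given as higher or lower and not as changes.

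Among the 12 higher genes of smallest p, WEE1 stood first. WEE1, the kinase that restrains CDK1 and so delays entry into mitosis, was at 16.2 CPM in MII 2, 38.3 in MII 3, 51.5 in MII 4 and 11.1 in MII 1, against 2.33 to 8.71 (median 4.82) in MI. Every MII library was above every MI library, and the 2 Chow+T libraries were highest. Its log2 fold change was 2.53 (SE 0.408, 95% CI 1.65 to 3.41, adjusted p = 0.326). In bulk RNA, fewer cells of a type and less RNA per cell cannot be told apart.

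The same order held for KLF10, a TGF-beta-inducible zinc finger repressor. It was at 125, 215, 352 and 95.5 CPM in MII 2, 3, 4 and 1, and at 44.7 to 91.8 (median 64.3) in MI, with no overlap and a log2 fold change of 1.53 (SE 0.293). MYLIP, a ubiquitin ligase, also had no overlap, with 5.69, 12.8, 9 and 4.94 CPM in MII 2, 3, 4 and 1 against 1.13 to 3.33 in MI (log2 fold change 1.86). These 3 were the only non-overlapping genes of the 12. Over all genes tested that share was 0.224%, but choice by smallest p favours such genes.

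SERTAD1, a cofactor of CDK4 and E2F, was at 125 CPM in MII 2, 128 in MII 3 and 160 in MII 4, but at 30.8 in MII 1, inside the MI range of 24 to 55.4. ETV3, an ETS-family repressor, was likewise high in the 3 chow libraries (93.9, 143 and 142 CPM) and at 56.4 in MII 1, against 37.9 to 58.1 in MI. NR4A3, an immediate-early nuclear receptor of the ovulatory response, reached 24.7 and 20.5 CPM in the Chow+T libraries, and was at 2.55 in MII 2 and 1.78 in MII 1, where MI ranged from 0.367 to 2.42. In all 3 genes MII 1 was inside the MI range, and for NR4A3 the Chow+T libraries alone were far above it. Without MII 1, 16 genes passed the adjusted threshold, all higher in MII, among them SERTAD1 (log2 fold change 2.09), ETV3 (1.36) and WEE1 (2.82). Without MII 3 only MYOM1, a sarcomere protein outside the naming rule, passed (-4.23).

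The other 6 were JMJD1C, a histone demethylase family member (log2 fold change 1.49), EML5, a microtubule-associated protein (1.75), ALCAM, a cell adhesion molecule (2.05), ZNF367, a zinc finger protein (2), PYGM, glycogen phosphorylase (2.64) and TXNL4B (1.22). ALCAM had another pattern. It was at 153 CPM in MII 2, 189 in MII 3 and 72.5 in MII 1, above all MI libraries (14.3 to 41.3), and at 23.7 in MII 4, inside their range. Chow+T alone therefore held both a high and a low value.

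**Figure D1:**
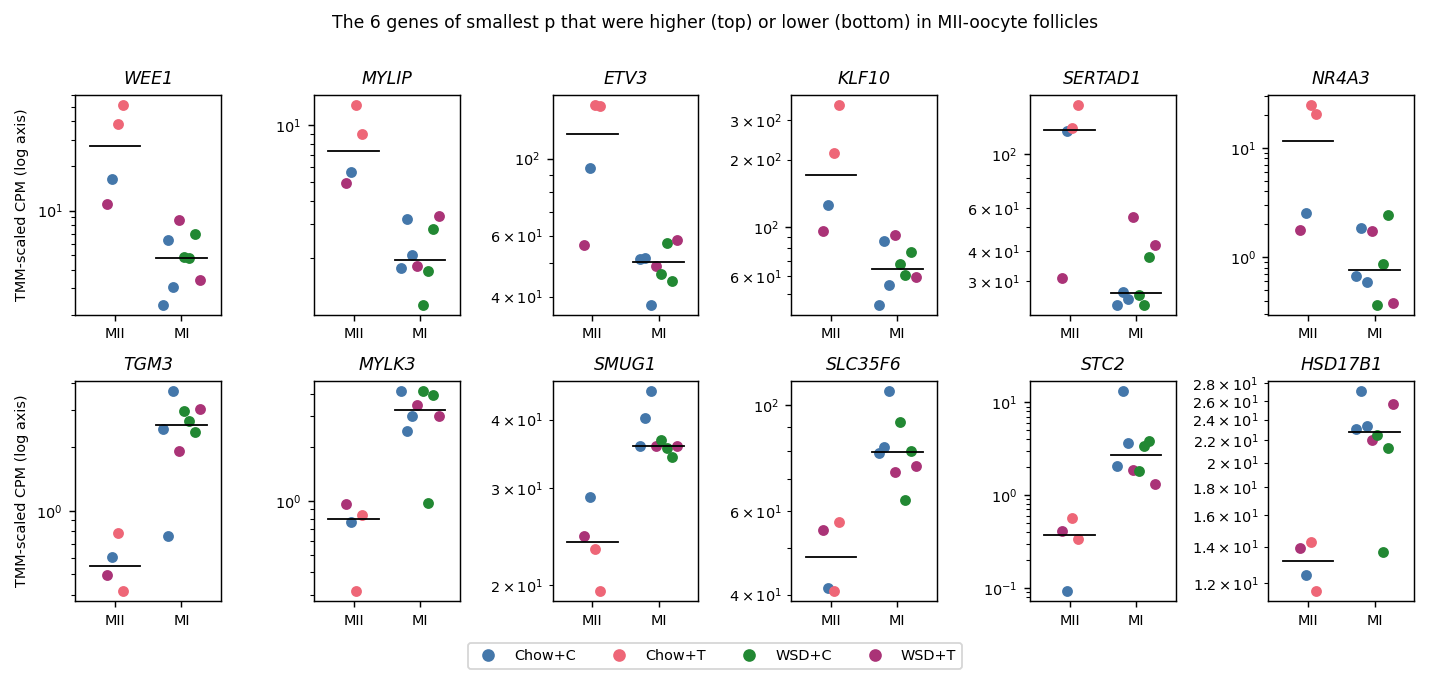
TMM-scaled CPM (log axis) of the 6 higher genes (top row) and 6 lower genes (bottom row) of smallest p in the 4 MII and 8 MI libraries. Each point is 1 library coloured by treatment group, and the bar is the median. The 2 Chow+T libraries are the highest for each of the 6 higher genes, while the MII libraries lie at the low end for the lower genes.

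In 9 of the 12 lower genes of smallest p, all MII libraries were below all MI libraries. Over all genes tested that share was 0.636%, but choice by smallest p favours such genes. STC2, a secreted glycoprotein that inhibits cleavage of IGF-binding proteins by PAPP-A, was at 0.0926, 0.562, 0.34 and 0.409 CPM in MII 2, 3, 4 and 1 and at 1.31 to 13.2 (median 2.72) in MI, a log2 fold change of -3.46 (SE 0.745, adjusted p = 0.326) that was -2.85 without MI 2. MYLK3, a myosin light chain kinase, was at 0.315 to 0.964 CPM in MII and 0.975 to 4.13 in MI (-2.12). Both levels were low, and the lowest MI value for MYLK3 came close to the highest MII value.

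TGM3, a transglutaminase that crosslinks proteins, was at 0.418 to 0.787 CPM in MII. In MI it was at 1.92 to 3.67 in 7 libraries and at 0.761 in MI 2, the library of high mitochondrial share. Its log2 fold change was -2.09, and without MI 2 it was 1 of 2 genes past the adjusted threshold, with PTCD2. SMUG1, a uracil DNA glycosylase, was at 19.5 to 28.9 CPM in MII against 34.2 to 45.1 in MI (-0.64), a small difference with little spread in either class.

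HSD17B1 makes estradiol from estrone in granulosa cells. It was at 12.4, 14.3, 11.6 and 13.9 CPM in MII 2, 3, 4 and 1. In MI it was at 21.3 to 27.1 CPM in 7 libraries and at 13.7 in MI 6, the only one inside the MII range. The log2 fold change was -0.78 (SE 0.17). The rest of the 12 were SLC35F6 (-0.75), KTN1, a kinesin-binding membrane protein (-0.72), POLR1B, an RNA polymerase I subunit (-0.85), TBC1D13 (-0.43), COG2 of the Golgi tethering complex (-0.46), NPR1, the atrial natriuretic peptide receptor (-1.71) and ZNF35 (-0.81).

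The same 24 genes were then read inside the treatment groups, where each group had 1 MII library, and values inside a single group are given without a test. Their direction was partly fixed, because these libraries were among the 12 that chose the genes. In Chow+C, MII 2 was above all 3 MI libraries in 12 of the 12 higher genes and below all 3 in 12 of the 12 lower genes; over all genes tested those shares were 20.9% and 20.4%. In WSD+T, MII 1 was above both MI libraries in 8 of the 12 higher genes (background 34.2%) and below both in 12 of the 12 lower genes (background 35.7%). Genes for which both MII libraries were above the MI libraries of their own group made up 4.4% of all tested, and those below in both 4.98%. All 12 lower genes had a negative difference in both groups, and 10 of the 12 higher genes had a positive difference in WSD+T. Because these libraries took part in choosing the genes, the shares over all genes are no fair background for these counts.

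The sizes differed between the groups. WEE1 was 2.18 higher on the log2 scale in Chow+C and 1.02 in WSD+T. SERTAD1 was 2.29 higher in Chow+C and -0.65 in WSD+T, where MII 1 at 30.8 CPM lay below MI 4 and MI 8 at 55.4 and 42.2. ALCAM was 2.79 higher in Chow+C and 2.24 in WSD+T. STC2 differed by -5.31 and -1.87, with MI 2 at 13.2 CPM in Chow+C. An interaction term for the difference between the groups was added after the data were seen. It rested on 1 MII library in each group, so it cannot tell a group difference from a difference between single libraries. Its size, WSD+T minus Chow+C on the log2 scale, was -1.19 for WEE1, -2.96 for SERTAD1, -0.55 for ALCAM and 4.09 for STC2.

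With treatment group as a term, so that oocyte class was estimated inside Chow+C and WSD+T only, 0 genes passed and 290 (2.03%, either direction) had an unadjusted p under 0.05. Of the 24 genes, 8 of 12 higher and 11 of 12 lower were among them. The 24 had been chosen by p in these same 12 libraries, so 2.03% is no fair background for those counts. WEE1 was then 1.54 and NR4A3 1.05 on the log2 scale, below the values without the term, while ALCAM was 2.54 and HSD17B1 -0.88. In Chow+T the MII libraries have no MI counterpart. There WEE1 was at 22.3 CPM in the library with a degenerating oocyte and 3.69 in the library with a germinal vesicle oocyte. SERTAD1 was at 108 and 26.1. Such high values were not confined to Chow+T. Over the degenerating libraries of Chow+T, WSD+C and WSD+T, WEE1 was at 4.81 to 22.9 CPM (median 13.3, MI median 4.82). SERTAD1 was at 34.4 to 114 CPM in them (median 83.8, MI median 26.7).

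Of the pathway lists, cholesterol synthesis and uptake had the smallest share of genes above 0. Granulosa cells draw the substrate for progesterone from the mevalonate pathway and from lipoproteins, and the pathway's genes are driven together by SREBP2. Of 25 tested genes, 1 was above 0 (4%, against 44.8% of all genes tested), and 13 were lower at an unadjusted p under 0.05 (background 4.51%); 0 passed the adjusted threshold. The median log2 fold change was -0.56, beside -0.04 over all genes.

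MVK, mevalonate kinase, was at 13.7 CPM in MII 2, 11.6 in MII 3, 26.2 in MII 4 and 25.8 in MII 1, all below the MI range of 28.7 to 63 (log2 fold change -1.08, SE 0.284, adjusted p = 0.376). MVD, the decarboxylase later in the pathway, was at 29.7, 19.6, 57.1 and 56.1 CPM in the same order against 58.3 to 102 in MI. These 2 of 25 were the only genes of the list without overlap (background 0.636%). In both, MII 2 and MII 3 were far below the MI range and MII 4 and MII 1 just below it.

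FDFT1, squalene synthase, and SQLE, squalene epoxidase, had log2 fold changes of -0.73 and -0.97. SCARB1, the HDL receptor, was the 1 gene with a positive value (0.1), at 3140 to 7560 CPM in MII and 1510 to 7700 in MI.

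Inside Chow+C the list's median was -0.97, with MII 2 below all 3 MI libraries in 17 of 25 genes (background 20.4%). Inside WSD+T it was -0.19, with MII 1 below both MI libraries also in 17 genes (background 35.7%). Without MII 2 the number at an unadjusted p under 0.05 was 5 and the median -0.43, and without MII 3 they were 8 and -0.48. With treatment group as a term the median was -0.6 and 2 genes were at that level.

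Steroid synthesis genes lay the same way. Of 16 tested, 3 were above 0 (18.8%, against 44.8% of all genes) and 6 were lower at an unadjusted p under 0.05 (background 4.51%), and the median was -0.69, with -0.46 in Chow+C and -0.29 in WSD+T. STAR, which delivers cholesterol to the mitochondrion, was at 1010, 399, 3090 and 2340 CPM in MII 2, 3, 4 and 1 against 1930 to 5830 (median 4420) in MI. MII 4 and MII 1 overlapped the MI libraries, and the log2 fold change was -1.19 (SE 0.491, adjusted p = 0.464). HSD3B2, which makes progesterone, was at 222, 23.1, 284 and 377 CPM against 229 to 1410 (-1.54), with MII 3 an order of magnitude below the rest. Its near-identical copy HSD3B1 did not pass the count filter, and reads of the pair may be split.

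POR, the electron donor of the microsomal P450 enzymes, was at 105 to 192 CPM in MII and 218 to 311 in MI, with no overlap (-0.62). CYP11A1, the side-chain cleavage enzyme, and CYP19A1, aromatase, overlapped widely, with log2 fold changes of -0.83 (95% CI -1.67 to 0.01) and -0.78 (95% CI -2.02 to 0.47). MII 3 was the lowest of the MII libraries for STAR, HSD3B2, POR, CYP11A1 and CYP19A1. Without it the list's median was -0.47, and with treatment group as a term it was -0.54, with 1 gene at an unadjusted p under 0.05.

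**Figure D2:**
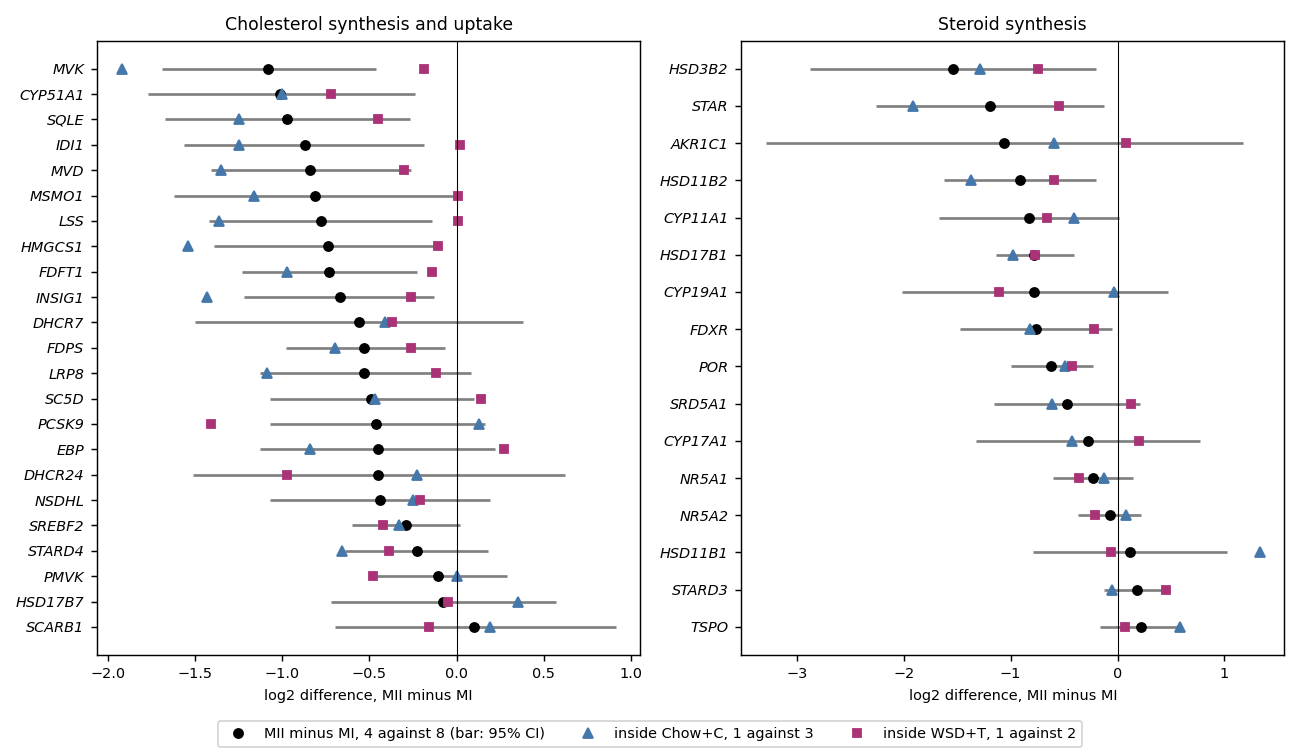
Log2 difference (MII minus MI) of the tested genes, 23 of the 25 for cholesterol synthesis and uptake (left) and all 16 for steroid synthesis (right): black points with 95% confidence intervals from the 4 against 8 fit, triangles inside Chow+C, squares inside WSD+T. Of the cholesterol genes drawn, 22 of 23 black points are below 0; the Chow+C triangles reach further down than the WSD+T squares (medians over the whole list -0.97 and -0.19).

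Glycolysis and hypoxia genes also leaned lower, with 2 of 24 tested genes above 0 (8.33%, against 44.8% of all genes) and a median of -0.36 (-0.39 in Chow+C and -0.49 in WSD+T). Members PGK1 and ENO1 were at no more than 0.352 and 0.948 CPM in these libraries, low for glycolytic enzymes, so their counts may be unreliable. Without them, a choice made after seeing the data, 20 of 22 were below 0 and the median was -0.36. SLC16A3, the lactate exporter, was at 39.5, 67, 46.8 and 66.9 CPM in MII 2, 3, 4 and 1 against 52.1 to 176 (median 139) in MI, a log2 fold change of -1.2 (SE 0.292, adjusted p = 0.355). ALDOC, an aldolase, was at 104 to 162 CPM against 149 to 247 (-0.67). SLC2A3, a glucose transporter, went against the list at 27.7 to 71.8 CPM in MII and 10.3 to 40.4 in MI (1.05). Granulosa cells supply the oocyte with glycolytic products. Of the list, 5 genes were lower (background 4.51%) and 1 higher (background 5.44%) at an unadjusted p under 0.05; without MI 2 it was 10 lower, without MII 2 it was 2 and without MII 3 it was 3.

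Signals that hold the oocyte in arrest were mixed. NPPC, which encodes C-type natriuretic peptide, was at 11.8, 4.36, 7.45 and 24.8 CPM in MII 2, 3, 4 and 1 and at 10.3 to 38.9 (median 23.6) in MI, and its log2 fold change was -0.99 (SE 0.455, adjusted p = 0.5). Its receptor NPR2 was at 67 to 94.8 CPM against 81.4 to 148 (-0.42). Inside Chow+C these were -1.03 and -0.72, and inside WSD+T NPPC was 0.31 and NPR2 0. NPR1, which answers to atrial rather than C-type peptide, was at 0.697 to 1.52 CPM in MII and 1.98 to 7.01 in MI with no overlap.

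The gap junction gene GJA1, by which the cells are coupled to each other, was at 2870, 1730, 2630 and 1170 CPM against 1320 to 2740, inside or near the MI range (0.06, 95% CI -0.48 to 0.6). Of the 14 tested genes of this list, 3 (NPR1, NPR2 and NPPC) were lower at an unadjusted p under 0.05 (background 4.51%) and 0 higher (background 5.44%), and the median was -0.1. The count was 5 without MII 1 (median 0.03) and 1 without MII 2, MI 1, MI 3, MI 6 or MI 7.

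The ovulatory response genes overlapped between the classes. Among EGF-like ligands and receptors, 0 of 8 reached an unadjusted p under 0.05 (background 5.44% higher and 4.51% lower). AREG was at 113 to 415 CPM in MII and 46.9 to 1610 in MI, and EREG at 135 to 929 against 435 to 1170. The log2 fold changes were -0.74 (95% CI -2.28 to 0.8) and -0.15 (95% CI -1.02 to 0.73), intervals that leave room for a large difference in AREG. Of 21 cumulus matrix and ovulatory genes, 1 was higher at an unadjusted p under 0.05 (background 5.44%) and 0 lower (background 4.51%). It was NRIP1, a nuclear receptor corepressor, at 57.6 to 132 CPM against 48.3 to 76.4 (0.45). HAS2, hyaluronan synthase, was at 34 to 63.5 CPM in MII and 29.1 to 114 in MI (-0.72), and PTGS2, the prostaglandin synthase of ovulation, at 711 to 1520 against 184 to 2360 (-0.04, 95% CI -1.17 to 1.09). LHCGR, the luteinizing hormone receptor, was at 8.17, 11.7, 15.2 and 14.7 CPM in MII 2, 3, 4 and 1 and at 11.5 to 46.5 in MI (-0.95, adjusted p = 0.456).

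Cell cycle genes leaned higher in MII, with 24 of 33 tested above 0 (72.7%, against 44.8% of all genes), a median of 0.44 and 6 at an unadjusted p under 0.05 (background 5.44%). CDK1, the mitotic kinase, was at 69.6 CPM in MII 2, 50.5 in MII 3, 22.1 in MII 4 and 12.8 in MII 1. In MI it was at 6.89 to 44.6 (median 10.5), so that only MII 2 and MII 3 were above every MI library. CCNA2, cyclin A2, and AURKB, a mitotic kinase, had log2 fold changes of 1.1 and 1.16. The other 3 of the 6, outside the naming rule, were CCNB2, TOP2A and CCNB1.

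Inside Chow+C the median was 0.75 and MII 2 exceeded all 3 MI libraries in 20 of 33 genes (background 20.9%), CDK1 by 2.94 on the log2 scale; inside WSD+T the median was 0.13 and CDK1 differed by 0.13. Without MII 2, 0 genes were at an unadjusted p under 0.05, and without MII 3 it was 1. It was 3 without MI 1, MI 3, MI 6 or MI 8, 10 without MII 1 and 11 without MI 5. With the mean level of leukocyte markers as a covariate it was also 0, with a median of 0.41, and with treatment group as a term it was 2.

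Immediate-early genes, which are switched on within minutes of a stimulus, differed in sign between Chow+C and WSD+T. Each of these groups held 1 MII library, so this cannot be told from a difference between single libraries. Of 22 tested, 7 were higher at an unadjusted p under 0.05, against 5.44% of all genes (the list's median was 0.23, and 0.1 without MII 2 or 0.44 without MII 1), led by KLF10, NR4A3 and KLF4. With treatment group as a term it was 1. KLF4 was at 56.2, 70.1, 165 and 52.5 CPM in MII 2, 3, 4 and 1, against 18 to 53.3 in MI. Inside Chow+C 20 of 22 genes were above 0 (median 0.85), against 49% of all genes, and inside WSD+T 7 of 22 (median -0.53), against 49.7%. FOS, not among the 7, was at 4420 CPM in MII 2, above all MI libraries (2080 to 3850), and at 1480, 429 and 1670 in MII 3, 4 and 1, below all of them. EGR1 was at 3590, 827, 351 and 1360 CPM against 1350 to 3040. FOS and EGR1 were chosen after their values were seen.

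Interferon response genes leaned higher in MII. Of 22 tested, 19 were above 0 (86.4%, against 44.8% of all genes) and 7 at an unadjusted p under 0.05 (background 5.44%), with a median of 0.61. DDX58, the RNA sensor RIG-I, was at 41.3 CPM in MII 2, 55.5 in MII 3, 19.7 in MII 4 and 10.7 in MII 1, against 8.53 to 16.9 in MI (1.31). IRF1, an interferon regulatory factor, was at 35.7, 92.8, 42.4 and 10 CPM against 2.36 to 29.9 (2.01). For both, the 3 chow libraries were above the MI range and MII 1 inside it. Inside Chow+C the median was 1.51, with MII 2 above all 3 MI libraries in 18 of 22 genes (background 20.9%), and inside WSD+T it was -0.07. Without MII 2 the median was 0.11 and 3 genes were at that level. The count was 4 without MI 7, 11 without MII 1 or without MII 4, and 2 with treatment group as a term (median 0.82).

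**Figure D3:**
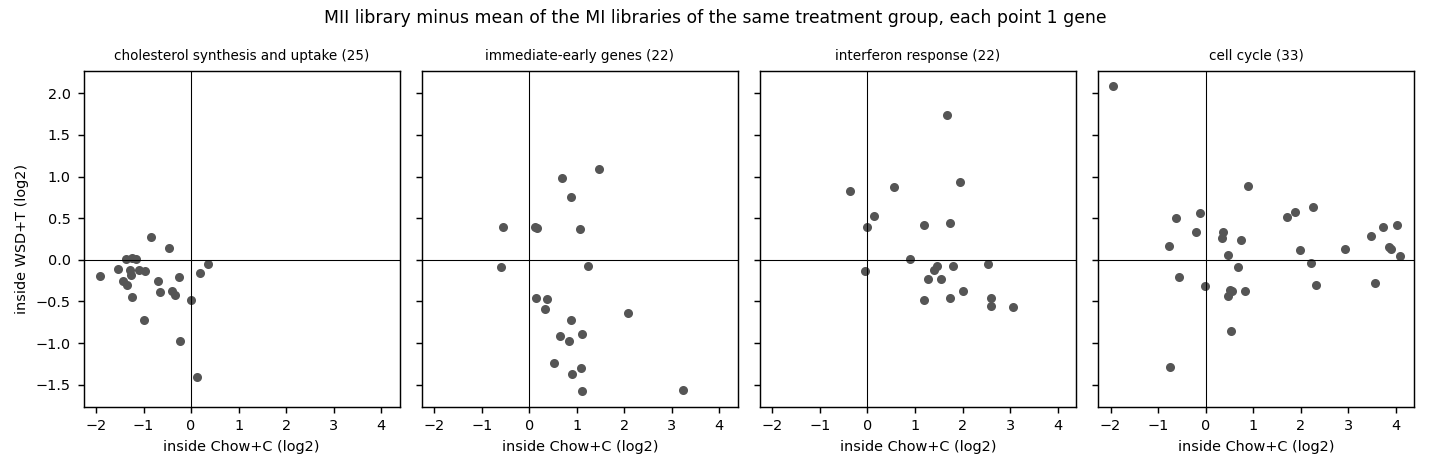
Log2 CPM of the MII library minus the mean of the MI libraries of its own treatment group, Chow+C on the x axis and WSD+T on the y axis, with 1 point per gene of 4 lists. Cholesterol genes lie mostly left of and below 0, while interferon and immediate-early genes lie right of 0 in Chow+C and are spread on both sides of 0, or below it, in WSD+T.

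**Figure D4:**
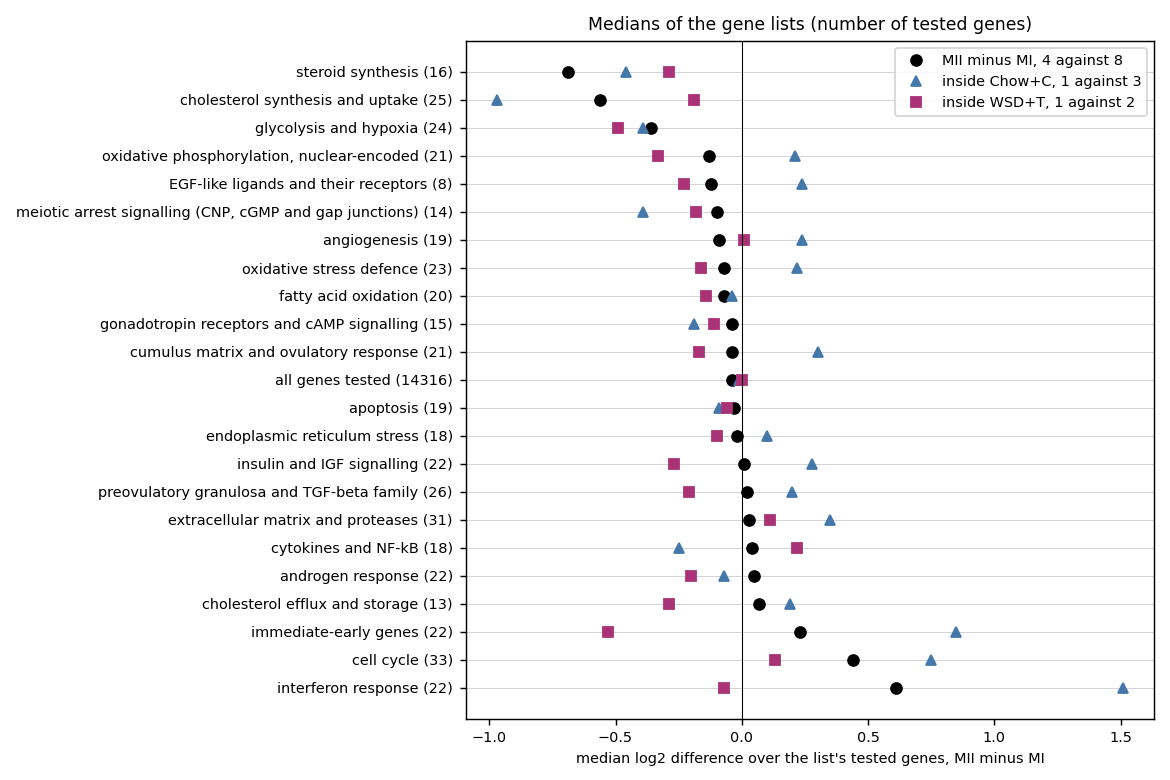
Median log2 difference (x axis, MII minus MI) of each pathway list (y axis, with its number of tested genes) over all 12 libraries (circles), inside Chow+C (triangles) and inside WSD+T (squares). Steroid synthesis (-0.69) and cholesterol synthesis and uptake (-0.56) have the lowest circles and interferon response (0.61) the highest, and the 14316 genes tested have a median of -0.04.

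Oxidative phosphorylation had 0 of 21 genes at an unadjusted p under 0.05 (background 5.44% higher and 4.51% lower) and a median of -0.13. Inside Chow+C, however, 20 of 21 genes were above 0 (49% of all genes), and inside WSD+T 2 of 21 (49.7%). Fatty acid oxidation (-0.07), angiogenesis (-0.09), apoptosis (-0.03), oxidative stress defence (-0.07), endoplasmic reticulum stress (-0.02), insulin and IGF signalling (0.01), extracellular matrix and proteases (0.03), preovulatory granulosa and TGF-beta family (0.02), cytokines and NF-kB (0.04), androgen response (0.05), gonadotropin receptors and cAMP signalling (-0.04) and cholesterol efflux and storage (0.07) had medians within 0.1 of 0.

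Macrophage markers were highest in 1 MII library. The 13 matched macrophage genes summed to 28.8 CPM in MII 2, 190 in MII 3, 21.2 in MII 4 and 49.3 in MII 1, against 11.8 to 36.2 in MI. MII 3 stood far above the rest, MII 1 was also above the MI range, and MII 2 and MII 4 were inside it. Inside WSD+T 12 of 12 tested macrophage genes were above 0 (median 1), against 49.7% of all genes. There MII 1 was above both MI libraries in 9 of 12 (background 34.2%). Inside Chow+C 6 of 12 were above 0 (median 0.07), against 49% of all genes. CD68, a macrophage lysosomal protein, was at 49.4 CPM in MII 3 and 7.43 to 10.9 in the other MII libraries, and CD163, a scavenger receptor, at 26.2 against 1.07 to 5.2. All 12 tested macrophage genes were above 0 (background 44.8%, median 1.7), 7 at an unadjusted p under 0.05 (background 5.44%); without MII 3 it was 0 genes and a median of 0.53. No macrophage marker was at 0 in all 12 libraries, and 2 of 13 were at 1 CPM or more in every one.

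The 11 matched leukocyte genes summed to 26.7 to 137 CPM in MII, highest in MII 3, and 6.07 to 66.3 in MI, with RAC2 at 0 in all. Lymphocyte markers summed to 13.2 CPM in MII 2 and 1.42 to 2.51 in the other MII libraries, against 0.318 to 10.5 in MI. Neutrophil markers summed to 27.1 CPM in MII 2, 11.6 in MII 1, 11.3 in MII 4 and 3.28 in MII 3, against 0.44 to 29.2 in MI, so that for both lists MII 2 and MI 1 were the highest libraries. Erythroid markers reached 3340 CPM in MII 2 and 2370 in MII 4, and 3450 in MI 1. Oocyte markers summed to 19.6, 3.78, 2.48 and 14.4 CPM in MII 2, 3, 4 and 1, against 2.28 to 22 in MI. MII 2 and MII 1 were above the MI libraries of their own groups, at 2.28 to 10 in Chow+C and 2.52 to 3.18 in WSD+T. Of the 14 matched oocyte genes, 12 were at 0 in some library. What oocyte RNA contributes to the gene values above was not tested. With the leukocyte score as a covariate, 384 genes were higher and 429 lower at an unadjusted p under 0.05. The cholesterol list then had a median of -0.46 with 6 genes at that level, the steroid list -0.49 with 3, and the interferon list 0.53 with 0. What else white blood cells contribute to the gene values above was not tested.

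**Figure D5:**
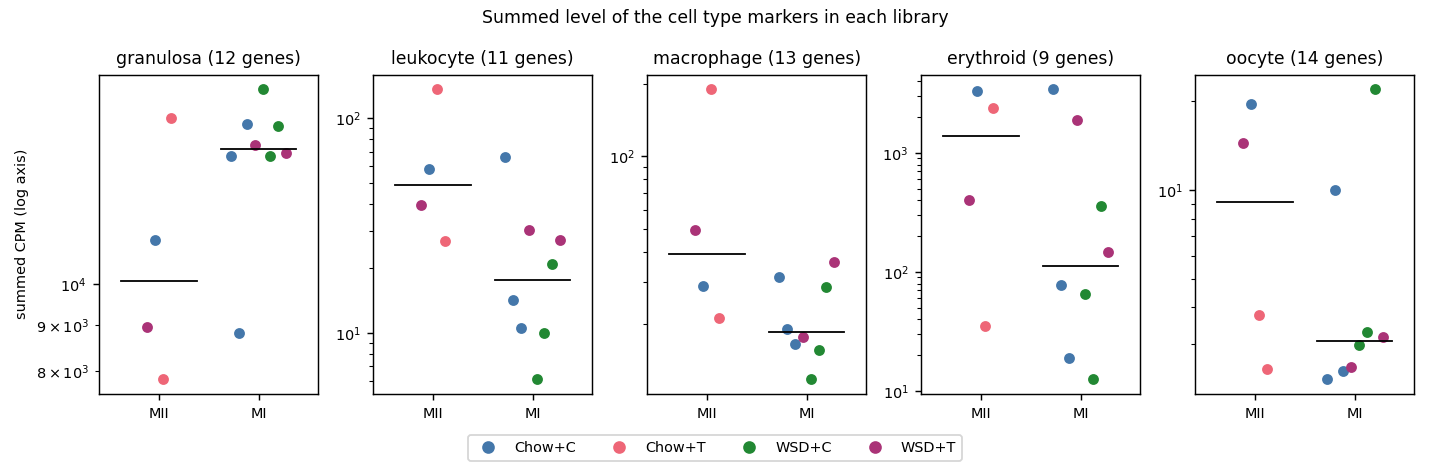
Summed CPM (log axis) of the matched markers of 5 cell types in the 4 MII and 8 MI libraries, 1 point per library coloured by treatment group, with the median as a bar. MII 3 (Chow+T) has the highest macrophage sum at 190 CPM, and granulosa sums overlap between the classes.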

How the data were processed

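The values are raw counts per gene as deposited by the authors, 1 table for 19 libraries. Trimmomatic and STAR were used on the reads, per the submitters' processing notes; for versions, build, annotation and counting method, nothing is given in the sources used here. Per the labels' protocols the libraries were polyA-selected and non-directional, so a gene and its antisense neighbour share reads. Of 32386 genes, 21539 had a symbol in the file and a gene name table added 1383. Reads outside genes (ambiguous, multimapping, no feature or unmapped) were 30.9% to 50.9% in the 12 libraries and stayed out of library sizes and tests. No coordinates or sequences are given, and some genes counted in the lists are not reported by name here. All columns matched a label, with 0 left unmapped.

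The analysis used edgeR 4.0.16 (R 4.3.3): filterByExpr (minimum count 10, minimum total 15), TMM scaling, and the robust quasi-likelihood test of MII against MI in 12 libraries with no covariate, two-sided, Benjamini-Hochberg adjusted, threshold 0.05. Differences inside Chow+C and WSD+T are log2 CPM (prior count 1) of the MII library minus the mean of the MI libraries. DESeq2 1.42.0 and limma 3.58.1 (voom) were alternatives, with other scaling and filters, treatment terms, a leukocyte score (mean log2 CPM of its markers) as a covariate, the degenerating class in the fit, and each library left out in turn. The fit was tested on simulated data. Depth limits counting error only. P-values rest on the spread between these libraries, which without a treatment term includes differences between treatment groups. No label says outright that each library is a separate animal.

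The comparison, the gene lists and the panel were chosen with earlier results of these data known. Fewer than 5 genes passed, so the 12 higher and 12 lower genes of smallest p were named (symbol present, mean log2 CPM 0 or more), with a panel of oocyte maturation genes and up to 3 genes per pathway list at an unadjusted p under 0.05.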

Additional observations from a re-analysis of the deposited data

Results flagged for a closer look

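The 84 named genes were each looked at in both classes, on CPM without logs. In 14 cases the highest or lowest library of a class stood apart from its other libraries by more than Dixon's 95% limit. For normally distributed values chance passes that limit in about 1 of 20 groups. CPM without logs need not be so distributed, and many of the genes were chosen by p in these libraries. The 14 cases therefore cannot be judged against that rate. MI 2 (Chow+C) was the high one for 7 genes: PYGM at 0.951 CPM, STC2 at 13.2, REL at 2.7, INHBB at 163, ADAMTS1 at 561, AREG at 1610 and RUNX2 at 252. This library also had the lowest share of reads in genes and the highest mitochondrial share; their part in these values was not tested. MI 3 (Chow+C) was high for MVD at 102 CPM and VCAN at 8480, and MI 5 (WSD+C) for CDK1 at 44.6. MI 6 (WSD+C) was low for HSD17B1 at 13.7 CPM. In MII, MII 4 (Chow+T) was high for KLF4 at 165 CPM, and MII 3 (Chow+T) was high for PLAU at 2.88 and low for POR at 105.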

How the results depend on the processing

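No gene passed under 10 of 11 alternatives; DESeq2 called 137, with 324 genes left without an adjusted p, and all 24 genes of smallest p were among its calls. Leaving out 1 library gave 0 to 16 calls: 16 without MII 1, 2 without MI 2, 1 without MII 3 (MYOM1). Of all genes tested, 779 (higher) and 645 (lower) had an unadjusted p under 0.05; these counts became 1212 higher with no low-count filter, 168 and 122 with treatment group as a term, 244 and 205 with steroid and diet as terms, 156 and 83 in the 7 libraries of those groups that held both classes, 384 and 429 after adding the leukocyte score, and 499 higher with the degenerating class in the fit. Leaving out 1 library gave 359 (without MII 3) to 1268 (without MI 2) higher and 348 to 1181 lower. The cause was not tested. In the fits with treatment group as a term, the class difference comes from MII 1 and MII 2, the MII libraries with MI libraries in their own group. The comparison is limited by 4 MII libraries and by treatment groups that hold 1 class only.

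For 12 panel genes the sign changed in some alternative (log2 fold changes follow; none of these 12 passed edgeR's threshold). Over the 12 libraries AREG was -0.74 and PTGER2 0.47, and the other 10 lay between -0.15 and 0.29. With limma-voom GJA1 was 0, NPR3 0.05 and PTGS2 0.25. With treatment group as a term FSHR was -0.27, PTGER2 -0.53, RUNX2 -0.13, EREG 0.05, RUNX1 0.13, SCARB1 -0.15, VCAN -0.22, NPR3 0.09 and PTGS2 0.18. The 7 libraries gave the same to 2 decimals except SCARB1 -0.16 and PTGS2 0.19 (FSHR -0.27, PTGER2 -0.53, RUNX2 -0.13, EREG 0.05, RUNX1 0.13, VCAN -0.22, NPR3 0.09). With steroid and diet PTGER2 was -0.48, RUNX2 -0.06, INHA 0.07, RUNX1 0.05, SCARB1 -0.14, VCAN -0.1, NPR3 0.36 and PTGS2 0.58. With the leukocyte score AREG was 0.06, INHA 0.16, EREG 0.15, SCARB1 0, NPR3 0.22 and PTGS2 0.19. Leaving out 1 library, VCAN ranged from -0.09 to 0.34, NPR3 from -0.2 to 0.11, PTGS2 from -0.26 to 0.24, SCARB1 from -0.19 to 0.27, GJA1 from -0.11 to 0.28, RUNX1 from -0.18 to 0.04, EREG from -0.4 to 0.2 and INHA from -0.4 to 0.03. No paired analysis was possible because the labels give the libraries no shared replicate numbers.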
